A study of Mus musculus with 14 samples.

Results

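Transcripts of ferritin and of 8 related genes of iron uptake, export, sensing and delivery were examined here. The set is 10 named genes (Ftl1, Fth1, Tfrc, Slc40a1, Slc11a2, Aco1, Ireb2, Ncoa4, Pcbp1 and Pcbp2) of the 35271 genes in the deposited table, found by matching Ensembl identifiers to mouse symbols, and every one was found. The set was chosen by the low SD of Ftl1 between these cells, its place among the steadiest genes, so that SD is given below only as a description. The samples are 14 single mesangial cells, the contractile support cells between glomerular capillaries, from 1 male wild-type mouse of the strain given in the labels as C56BL/6 and in the design text as C57BL/6, aged 8 weeks. Glomeruli were pulled out with magnetic beads, broken up with enzymes and passed to a Fluidigm C1 instrument, which lyses each cell and makes its cDNA in a separate chamber. There is 1 group and no treatment, and the animal is the only replicate, so cells are compared by description and no p-value is given. Cells carry the names of their labels, GL_M_ and a number.

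Free iron is toxic, and cells keep it inside ferritin, a hollow shell built from light chains (Ftl1) and heavy chains (Fth1), of which the heavy chain oxidises iron so that it can be stored. Iron enters on transferrin through the transferrin receptor (Tfrc), crosses the endosome membrane through the transporter DMT1 (Slc11a2), is handed to ferritin by the chaperones Pcbp1 and Pcbp2, and leaves the cell through ferroportin (Slc40a1). The iron regulatory proteins (Aco1 and Ireb2) bind hairpins in several of these mRNAs when iron is scarce, blocking translation where the hairpin precedes the coding region and protecting the mRNA where it follows. Ncoa4 is the receptor that carries ferritin to the lysosome to release its iron.

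The hairpins, called iron-responsive elements, are shown because they separate the 2 ferritin mRNAs from the receptor mRNA in how iron is known to act on them. Transcripts of the GENCODE M21 annotation on GRCm38 were searched on the sense strand for C, any 5 bases and the loop CAGTGN (its last base not G), followed by 5 bases that pair with the 5 before the loop (Watson-Crick or G with T). Of the 10 genes, 4 held such a match in a protein-coding transcript, against 1.01% of 21901 protein-coding genes (222 genes). The hairpin is already known from several of these mRNAs, so the count of 4 followed from the choice of genes. Nothing is read from it. Each window below has 27 bases, 5′ to 3′ on the mRNA, with T for U and the loop in capitals.
Ftl1, 5′ UTR, chr7:45459780-45459806, minus strand: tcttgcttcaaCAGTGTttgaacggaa
Fth1, 5′ UTR, chr19:9982733-9982759, plus strand: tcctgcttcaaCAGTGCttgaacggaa
Slc40a1, 5′ UTR, chr1:45925466-45925492, minus strand: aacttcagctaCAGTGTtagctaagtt
Tfrc, 3′ UTR, chr16:32631220-32631246, plus strand: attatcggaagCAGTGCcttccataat
Tfrc, 3′ UTR, chr16:32631599-32631625, plus strand: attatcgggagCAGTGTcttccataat
Tfrc, 3′ UTR, chr16:32631664-32631690, plus strand: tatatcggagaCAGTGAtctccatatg
Tfrc, 3′ UTR, chr16:32631711-32631737, plus strand: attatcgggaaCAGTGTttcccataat
The windows of both ferritin mRNAs were identical at 25 of 27 bases, and differed by T3C and T17C (Ftl1 base first, counted from 1 at the 5′ end of the window), the second of these being the last base of the loop. Tfrc held 4 matches after its coding region. A match is a string of letters that can pair, and the RPKM values do not measure whether a protein binds it.

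Before the members, 3 facts about the cells matter. Read totals, recovered from the steps between RPKM values, ran from 6.60 M to 23.8 M, and genes at an RPKM of at least 1, the limit called detected here, from 1770 to 5277 per cell, with the most in GL_M_36 and GL_M_47. All 7 mesangial markers checked were detected in some cell, 4 of them (Gata3, Serpine2, Ptn and Agtr1a) in all 14. All 8 endothelial and 7 of 8 podocyte markers were also detected in some cell, but 0 of either list in all 14. By their sum, markers of other cells stood out in GL_M_30 (endothelial, with a summed RPKM of 3156 against a median of 114) and in GL_M_55 (podocyte, 2178 against a median of 82.2). Single markers were high in other cells too, with an endothelial marker at 902 in GL_M_91 and a podocyte marker at 447 in GL_M_29. Of iron-rich cell types, 1 of 10 macrophage markers was detected (Fcer1g, up to 923 in GL_M_85), with Cd68, Adgre1, Csf1r and Tyrobp at 0 in every cell, and 0 of 7 erythroid markers was detected, with 6 at 0 throughout and Hbb-bs at 0.136 in GL_M_30. Of 5 proximal tubule markers 0 was detected.

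Ferritin transcripts were abundant in these cells and the rest of the set was sparse. Of the 10 genes, 2, Ftl1 and Fth1, were detected in all 14 cells, where 0.454% of all genes and 0.701% of protein-coding genes were. In 10 or more cells 2 of the 10 were detected, against 2.72% of all and 4.15% of protein-coding genes. Ftl1 alone reached 10 in every cell, as did 0.204% of all and 0.332% of protein-coding genes. Ftl1 was picked among such steady genes, so its place in all of these counts, and in those below, was fixed by the choice. Nothing is read from it, and Fth1 is the only other member in the counts of all 14 and of 10 or more cells. A share of 14 of 14 has an exact 95% Clopper-Pearson interval of 76.8% to 100%, which covers only the sampling of cells from this mouse. Another 5 were detected in 1 to 6 cells, and 3 (Tfrc, Slc40a1 and Aco1) were below 1 in every cell, as were 70.8% of all and 58.2% of protein-coding genes. Thus 7 of 10 were detected in some cell (29.2% of all and 41.8% of protein-coding genes), and 6 of 10 reached 10 in some cell (22.3% and 33.9%). Each cell had 2 to 4 of the 10 genes detected. Of the 112 values of the 8 genes other than the ferritin chains, 69 were 0, 30 lay between 0 and 1, 4 from 1 to below 10, and 9 were at 10 or more. Detection in few cells was usual in the table: detected genes had a median of 3 cells, the same as the 7 detected members.

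**Figure D1:**
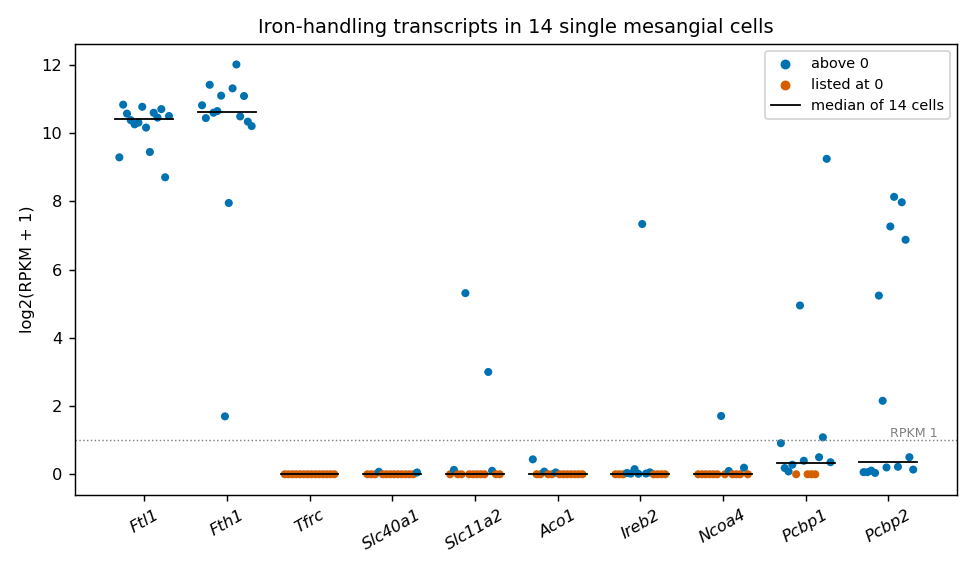
Each point is 1 of the 14 cells, in the same order within each gene, and the vertical axis is log2(RPKM + 1). Orange points are listed at 0, black bars are medians, and the dotted line marks an RPKM of 1. Ftl1 and Fth1 lie high in nearly all cells, with Fth1 low in 2, while the other 8 genes are at or near 0 in most cells, with Pcbp2 detected in 6, Pcbp1 in 3 and Slc11a2 in 2.

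Ftl1, the ferritin light chain (ENSMUSG00000050708, chromosome 7 from 45457944 to 45459884, minus strand), was high in every cell. Its RPKM ran from 417 in GL_M_94 through a median of 1368 to 1828 in GL_M_11, a 4.38-fold range, and its mean log2(RPKM + 1) was 10.22 ± 0.63 (SD, n = 14 cells of 1 mouse). The values fell into an upper set of 11 cells from 1147 to 1828 and 3 lower cells, GL_M_6 at 626, GL_M_60 at 698 and GL_M_94 at 417. These values stood on 2592 to 26983 reads per cell. Within a cell Ftl1 ranked between 38 and 374 among all genes, and among the 100 highest genes in 11 of 14 cells.

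That low spread is what put Ftl1 in view, and it supports nothing further. Among the 72 genes whose RPKM never fell below 10 it had the ninth lowest SD, 0.63, between Pcnp at 0.61 and the transcription factor Gata3 at 0.65. The limit of the 20 steadiest genes lay between Rps29 at 0.754 and Sept11 at 0.758. Its reads are less certain than those of the other members, because 58.4% of its 50-base stretches also occur in transcripts of 17 other annotated genes, and 47.3% in those of Ftl1-ps1 alone. The copies themselves held little signal. Ftl1-ps1 was at most at 0.704 and Ftl1-ps2 at most at 0.613 in any cell, and 0 of 11 ferritin copies and relatives was detected. Not all of the 17 genes were looked at. The treatment of multiply mapped reads is not given, so low values of the copies do not show where shared reads were counted.

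Fth1, the ferritin heavy chain (ENSMUSG00000024661, chromosome 19 from 9980598 to 9985098, plus strand), was as abundant as the light chain in most cells but nearly missing from 1. Its RPKM was 1182 to 4137 in 12 cells, with the highest value in GL_M_65, where it was the ninth highest gene. It was 247 in GL_M_55 and 2.24 in GL_M_51. The median over all cells was 1578, the mean log2(RPKM + 1) was 10.01 ± 2.56, and the range was 1844-fold. Without GL_M_51 and GL_M_55, a choice made after their values were seen, the SD was 0.53 (n = 12 cells). Leaving out GL_M_51 alone gave 0.96. Only 1.59% of the 50-base stretches of Fth1 were shared with another annotated gene.

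The low value in GL_M_51 rested on 37 reads, in the cell with the second highest read total of the 14. The same cell held 26983 reads of Ftl1, the most of any cell. GL_M_55 had 1624 reads of Fth1 in a total of 7.59 M. In 29 genes of the table an RPKM of 100 or more was reached in 13 cells and missed in 1, and in 11 of these the remaining value was below 10, in 3 genes for GL_M_51, 5 for GL_M_91, 2 for GL_M_55, 1 for GL_M_60 and 0 for the other 10 cells. That count was built on the pattern of Fth1. Besides Fth1, the genes low in GL_M_51 were Igfbp7, a secreted binding protein, at 3.56 against a median of 912 in the others, and the transcription factor Maf, at 5.93 against 524.

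Markers of podocytes, the cells that wrap the capillaries, were checked in the 2 cells with little Fth1. Of the whole list of 8, 5 were at 10 or more in GL_M_55, 2 in GL_M_51 and 0 to 2 in each other cell. The summed RPKM of the list was 2178 in GL_M_55 and 512 in GL_M_51, and 0.427 to 448 in the others. GL_M_55 held Cd2ap, an adaptor of the slit diaphragm, at 421 and Thsd7a at 382. Nphs1, which encodes nephrin, was at 0 in both cells. It reached no more than 6.46 in any cell (GL_M_11), so its zeros do not set these 2 cells apart. Of the 7 mesangial markers both cells had 6 at 10 or more, the exceptions being Itga8 at 0.650 in GL_M_51 and Agtr1a at 1.07 in GL_M_55. The part of podocyte transcripts in the low Fth1 was not tested.

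Set side by side, the heavy chain exceeded the light chain in 10 of 14 cells, in all but GL_M_11, GL_M_51, GL_M_55 and GL_M_91. Both were within 2-fold of each other in 8 cells. The difference of Ftl1 minus Fth1 in log2(RPKM + 1) ran from -1.87 in GL_M_60 to 0.39 in GL_M_11 outside the 2 cells with little Fth1, where it was 9.08 (GL_M_51) and 2.21 (GL_M_55). Its median was -0.39 and its mean 0.21 ± 2.76 over 14 cells, and the mean was -0.70 ± 0.77 without GL_M_51 and GL_M_55, so the sign of the mean rested on those cells. GL_M_51 alone turned it, to -0.48. In GL_M_51 the light chain gave 99.9% of the summed ferritin RPKM, in GL_M_55 82.3%, and in the other 12 cells 21.5% to 56.8%.

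This order of both chains holds for the lengths the authors divided by. Whole reads came out at a length of 810 bases for Ftl1 and 866 for Fth1. Divided by all annotated exon bases instead (1340 and 3469), Fth1 exceeded Ftl1 in only 4 of 14 cells, and the median difference became 0.89. With no length at all the count stayed at 10. Shared sequence differs between the chains as well. Of the 50-base stretches, 58.4% for Ftl1 but 1.59% for Fth1 occur in other annotated genes. How shared reads were counted is not given, so the part of shared sequence in this order was not tested. Both chains together made up 0.261% (GL_M_55) to 0.962% (GL_M_65) of a cell's RPKM total, with a median of 0.504%.

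**Figure D2:**
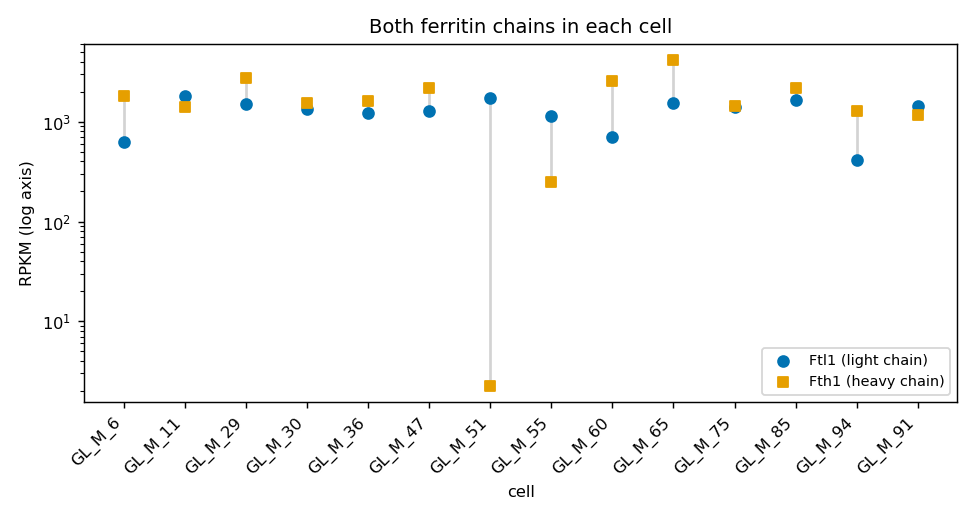
RPKM of Ftl1 (blue circles) and Fth1 (orange squares) in each of the 14 cells on a log axis, with a grey line joining both values of a cell. The squares lie above the circles in 10 cells. In GL_M_51 the square falls to 2.24 while the circle stays at 1750.

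The levels of both chains did not follow each other over the cells. Spearman's rho over 14 cells was -0.02, and 0.12 over 12 cells without GL_M_51 and GL_M_55. The cells share 1 mouse and the values share each cell's read total, so rho is a description. The genes most like each chain were taken from 888 genes detected in 10 or more cells with a mean RPKM of 10 or more. For Ftl1 these were Mdh1, the cytosolic malate dehydrogenase (rho 0.71), Adamts5, a matrix protease (0.69), the cohesin release factor Wapl (0.69), the ATP synthase subunit Atp5h (0.69) and the myosin Myo1c (0.66). For Fth1 they were the ribosomal protein gene Rpl32 (0.91), the clock gene Per3 (0.87), Sptssa, a subunit of the enzyme that begins sphingolipid synthesis (0.85), and the ribosomal protein genes Rpl23 (0.78) and Rpl37a (0.77). Being the highest of 888 values each, these figures are high by selection. The median rho over the candidates was -0.05 for Ftl1 and 0.11 for Fth1.

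The other members' spreads were set beside those of genes at a like mean level, within 0.5 on the log2 scale, and with a mean RPKM of 1 or more. The 18 genes near Fth1 had a median SD of 1.26, and 16 of them were lower than the 2.56 of Fth1. The SD of Fth1 itself fell to 0.96 without GL_M_51 and to 0.53 without GL_M_51 and GL_M_55. Those cells were singled out after their Fth1 values were seen. The SDs of the 18 genes were not recomputed without them, so the lower SDs of Fth1 cannot be set against that median. The place of Fth1 without those cells was not tested. Pcbp2 had an SD of 3.44 against a median of 3.26 at its level, Pcbp1 2.62 against 2.30, Ireb2 1.96 against 1.69 and Slc11a2 1.57 against 1.72. Tfrc, Slc40a1, Aco1 and Ncoa4 did not reach that mean RPKM and were not placed.

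**Figure D3:**
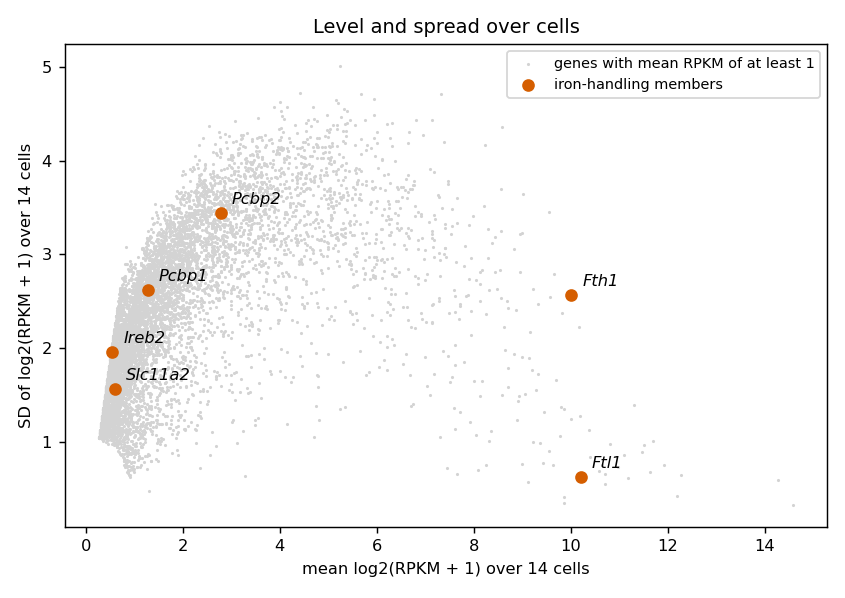
Grey points are the 7976 genes whose mean RPKM is 1 or more, placed by mean (horizontal) and SD (vertical) of log2(RPKM + 1) over 14 cells, and orange points are the 6 members among them. Ftl1 lies at the bottom right with an SD of 0.63, and Fth1, at nearly the same mean, lies higher at 2.56.

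The entry genes of the set, Tfrc and Slc11a2, were detected in 0 and 2 cells. Tfrc, the transferrin receptor (ENSMUSG00000022797, chromosome 16 from 32608920 to 32632794, plus strand), was listed at 0 in every cell. With 0 of 14 cells detected, the Clopper-Pearson interval reaches up to 23.2%. Listed at 0 throughout were 57.1% of all and 44.3% of protein-coding genes, so the zero alone does not mark Tfrc. At its mean annotated transcript length of 1791 bases, 3 reads would have given 0.0703 RPKM in the deepest and 0.254 in the shallowest cell. No 50-base stretch of Tfrc occurs in another annotated gene. Slc11a2, the endosomal iron transporter DMT1 (ENSMUSG00000023030, chromosome 15 from 100387898 to 100425072, minus strand), was detected in 2 cells. It was at 38.7 in GL_M_36, on 697 reads, and at 7.0 in GL_M_75, on 62 reads, was at 0.0926 and 0.0726 in GL_M_11 and GL_M_85, and at 0 in the other 10.

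Slc40a1, the iron exporter ferroportin (ENSMUSG00000025993, chromosome 1 from 45908068 to 45926523, minus strand), was at 0 in 12 cells and at 0.0520 in GL_M_30 and 0.0373 in GL_M_91. Both values fit as few as 1 read each, and lie under the RPKM that 3 reads would give in the shallowest cell, 0.307. Cp, ceruloplasmin, the secreted or membrane-bound ferroxidase that works with ferroportin, was in contrast at 10 or more in 8 cells. It reached 1320 in GL_M_11 and 1073 in GL_M_51, had a median of 71.8, and was at 1.03 or less in the 6 other cells. Ferroportin was at no more than 0.0520 in any cell, whatever the level of Cp, so nothing is read from the values of both together.

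The mRNAs of the iron regulatory proteins were below the detection limit in all but 1 cell. Aco1, which encodes the protein that is either cytosolic aconitase or an RNA-binding regulator (ENSMUSG00000028405, chromosome 4 from 40143081 to 40198338, plus strand), reached 0.354 in GL_M_6, 0.0561 in GL_M_30 and 0.0375 in GL_M_51, and was at 0 in the other 11. Ireb2, the second regulator (ENSMUSG00000032293, chromosome 9 from 54863789 to 54912530, plus strand), was at 161 in GL_M_55, on 7078 reads. Elsewhere it was at 0 in 7 cells and at 0.00904 to 0.110 in 6, on 1 to 8 reads. Without GL_M_55, the cell with the most podocyte transcripts, it was detected in 0 cells. In 6 cells both regulators were listed at 0.

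Ncoa4, the ferritin cargo receptor of autophagy (ENSMUSG00000056234, chromosome 14 from 32159865 to 32179855, plus strand), was detected in 1 cell. It was at 2.27 in GL_M_51, on 79 reads, at 0.143 in GL_M_94, at 0.0689 in GL_M_60 and at 0 in the other 11. GL_M_51 is the cell with the highest Ncoa4 and the lowest Fth1. It also had the most Ftl1 reads, but by RPKM its Ftl1, at 1750, lay below the 1828 of GL_M_11. Ncoa4 was detected in GL_M_51 alone, so nothing is read from its value there beside those of ferritin. Of the stretches of Ncoa4, 17.9% occur in another annotated gene, Gm6768, so its zeros are less certain.

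The iron chaperones were detected in part of the cells. Pcbp2, an RNA-binding protein that also delivers iron (ENSMUSG00000056851, chromosome 15 from 102470539 to 102500061, plus strand), was above 0 in all 14 cells and detected in 6 (42.9%, Clopper-Pearson 17.7% to 71.1%). It was at 280 in GL_M_60, 251 in GL_M_75, 153 in GL_M_55, 116 in GL_M_85, 36.7 in GL_M_36 and 3.45 in GL_M_47. In the other 8 cells it was at 0.0278 to 0.415, on 1 to 9 reads. Of its stretches 31.5% are shared, mostly with the overlapping gene Map3k12. Pcbp1, its relative with a single exon (ENSMUSG00000051695, chromosome 6 from 86524492 to 86526321, minus strand), was detected in 3 cells, at 607 in GL_M_94, 29.9 in GL_M_47 and 1.12 in GL_M_85. In 7 further cells it was at 0.0591 to 0.880, and in 4 at 0. One of the chaperones was at 10 or more in 7 cells, and both in 0. Pcbp1 reached 10 in only 2 cells and Pcbp2 in 5, and overlap was not counted for other pairs of genes. Nothing is therefore read from its absence. Only in GL_M_47 and GL_M_85 were both detected.

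A wider list of 114 iron genes in 10 sublists was counted in the same way. Of these, 2 (1.75%) were detected in all 14 cells, 9 in 10 to 13 cells, 62 in 1 to 9 and 41 (36%) in none. Both detected throughout were Skp1a and Epas1. Among protein-coding genes 0.701% were detected in every cell and 58.2% in none. The median was 2 cells over the list, and 3 cells over its detected genes, as over all detected genes. Per cell the list ran from 14 genes in GL_M_91 to 45 in GL_M_36, and GL_M_36 and GL_M_47, which had the most detected genes in all, also had the most of the list (45 and 39).

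**Figure D4:**
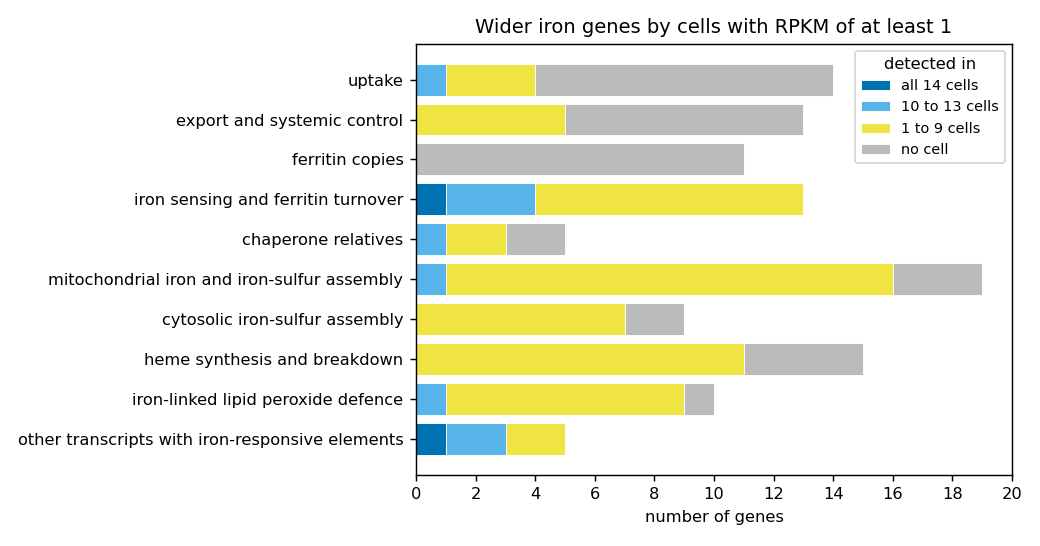
Each bar is 1 sublist of the wider iron genes and its length is the number of genes, split by the number of cells with an RPKM of at least 1. Most genes were detected in 1 to 9 cells or in none, and all 11 ferritin copies in none.

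The sublist counts are to be read against the 29.2% of all and 41.8% of protein-coding genes detected in some cell. In the sublist of uptake 4 of 14 genes were detected. Lrp1, a large scavenging receptor that also takes up heme bound to hemopexin, was detected in 11 cells, at up to 169 in GL_M_85. Trf, transferrin itself, was detected in 8 cells and was at 117 in GL_M_6 and 18.7 in GL_M_36. Hfe, the partner of the transferrin receptor, was at 10 or more in 4 cells, at up to 40.7 in GL_M_47. Of 13 genes of export and systemic control, 5 were detected, with Cp the highest. Bmp2, a ligand that can induce hepcidin, was at 314 in GL_M_75 and 123 in GL_M_11, and Bmp6, another such ligand, was listed at 0 in all 14.

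Of 13 genes of iron sensing and ferritin turnover all 13 were detected in some cell, with a median of 4 cells. Skp1a, a subunit of the ubiquitin ligase that degrades Ireb2 protein and many others, ran from 21.1 to 1928 with a mean log2(RPKM + 1) of 8.72 ± 1.59 (n = 14 cells). Tax1bp1, an autophagy receptor that works with Ncoa4, was detected in 13 cells with a median of 213. Map1lc3b and Gabarapl2, the ubiquitin-like proteins of the autophagosome, were detected in 13 and 12 cells, with medians of 364 and 167. In GL_M_51, the only cell with Ncoa4 detected, Tax1bp1 was at 159 and Gabarapl2 at 47.5, both below their medians. Map1lc3b was at 417 there, above its median.

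In the sublist of mitochondrial iron and iron-sulfur clusters 16 of 19 were detected, in a median of 2 cells over the sublist. Iscu, the scaffold on which clusters are built, was detected in 12 cells with a median of 23.5 and Isca1 in 6. In the cytosolic sublist 7 of 9 were detected, in a median of 3 cells, with Ciao2a at 10 or more in 5 cells and at up to 908, and Mms19 and Ciapin1 detected in 3 cells each. In the heme sublist 11 of 15 were detected, also in a median of 3 cells. Pgrmc1, a heme-binding membrane protein, was at 10 or more in 8 cells, Blvra, biliverdin reductase, in 4 and Cpox, an enzyme late in heme synthesis, in 2.

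Among relatives of the chaperones, Hnrnpk was detected in 12 cells at up to 1642, and Glrx3 and Bola2, which pass on cytosolic iron and clusters, in 2 each. Of 10 genes that guard against iron-driven lipid peroxidation 9 were detected. Gpx4, the peroxidase that repairs lipid peroxides, was at 10 or more in 12 cells and had a median of 361, but 34.7% of its stretches are shared with Gpx4-ps2. Slc7a11, the cystine importer, was detected in 6 cells at no more than 2.43, and Gclm in 1, at 89.2 in GL_M_11. In GL_M_51 Gpx4 was at 304.

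Of 5 further mRNAs for which iron-responsive elements have been described, all 5 were detected. Epas1, a hypoxia-inducible factor, was at 10 or more in every cell, from 29.6 in GL_M_55 to 581 in GL_M_65, with a mean log2(RPKM + 1) of 7.72 ± 1.32 (n = 14 cells). App, the amyloid precursor protein, was at 10 or more in 13 cells, with 0.716 in GL_M_55, and the kinase Cdc42bpa in 10. In GL_M_51, the cell with the lowest Fth1, Epas1 was at 286 and App at 208, both above their medians of 279 and 88.2, and Cdc42bpa was at 0.517, its lowest value.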

How the data were processed

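Single-cell RNA-seq values of 14 mesangial cells of 1 mouse were used. The authors deposited RPKM, reads scaled to gene length and to the reads of the cell. TopHat2 2.0.12, HTSeq 0.6.1 and mm10 are named per the submitters' processing notes. Not given in the sources used here are the annotation release, the treatment of multiply mapped reads and any filter on cells.

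Identifiers were matched to GENCODE M21 (GRCm38, the assembly of mm10), with 34488 of 35271 genes matching. Read totals came from the commonest step of RPKM times length at genes with 1 transcript. Of values below 50 reads, 84.7% to 89.7% then lay within 0.02 of a whole number. On simulated reads all totals came back. A gene's reads came from the smallest length that made all cells whole. In 400 genes with several transcripts this length was within 5% of the mean annotated transcript length in 232 and of the exon union in 2. RPKM of genes with many short transcripts is therefore higher than with exon union lengths. Reads of Slc40a1 and Aco1 are the smallest that fit. Floors of 3 reads and intervals cover counting error only, since molecular identifiers are not mentioned.

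Levels are log2(RPKM + 1), which compresses low values. The members and lists were chosen with earlier results of these data known. Named genes were all members, the 3 highest medians of each sublist and genes detected in at least 10 cells, the 5 genes most like each member detected in at least 10 cells, and the neighbours of Ftl1 by SD. Medians tied at 0 were taken in order of name, which is how Bmp2, Bmp6, Bola2 and Glrx3 came in. Other names were chosen after their values were seen (Igfbp7, Maf, and sequence partners). Alternatives were the detection limit, pseudocount, scaling, filter, length and cells left out. Python 3.11.15, pandas 2.3.3, numpy 2.4.6 and scipy 1.17.1 were used. Protein sequences were not used here. Some single genes that the rule or the marker lists name are not reported here.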

Additional observations from a re-analysis of the deposited data

How the results depend on the processing

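Counts moved with the detection limit. At an RPKM of at least 5 and of at least 10, 1 of the 10 genes (Ftl1) was detected in all 14 cells, against 2 at 0.1 and 3 for any value above 0. The count of genes detected in none was 1 for any value above 0, and 2 to 4 otherwise. Of the 114 wider genes 7 were detected throughout at a limit of 0.1 and 8 for any value above 0, where 22 were detected in none. Of 50 numbers of cells per member 44 lay within the exact 95% interval of the number at a limit of 1. Scaling each cell to a sum of 1000000 lifted the mean level of Ftl1 to 11.01, since RPKM summed to 533070 to 630398 per cell.

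Leaving out single cells gave a mean log2 level of 10.17 to 10.33 for Ftl1 and 9.86 to 10.65 for Fth1. The SD ran from 0.47 to 0.65 for Ftl1 and from 0.96 to 2.67 for Fth1, lowest without GL_M_51, and the SD of Fth1 was 0.53 without GL_M_51 and GL_M_55. The mean of Ftl1 minus Fth1 ran from -0.48 to 0.36, negative only without GL_M_51, and was -0.70 without both. Its median ran from -0.39 to -0.38, but was 0.89 with exon union lengths, where Fth1 exceeded Ftl1 in 4 cells. Omitting single cells kept that count at 9 to 10. Spearman's correlation between both chains ran from -0.15 to 0.20 and was 0.12 without GL_M_51 and GL_M_55. It was -0.25 after scaling by the median ratio of shared genes, which shifted cells by -0.199 to 0.628 on the log2 scale, and Pearson's r of log2 levels was -0.21. Among the 7976 genes whose mean RPKM is 1 or more the SD of Ftl1 ranked at 0.138%, and at 40.5% among all genes above 0 in some cell, where genes near 0 come first. That of Fth1 ranked at 60.6%, at 37.2% among genes whose mean RPKM is 10 or more and at 25.3% with a pseudocount of 0.1. No paired analysis was possible because there is 1 group.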
